A study of Mus musculus with 10 samples.

Results

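The semaphorins, plexins and neuropilins form one guidance system of ligands and receptors. Their transcripts were examined in the cerebellum of Dscam del17/del17 mice (labelled DscamKO) and their wild-type littermates (labelled Control). Members were taken by gene symbol in the GENCODE M21 annotation: every semaphorin of classes 3 to 7, every plexin and both neuropilins. This gave 31 of the 53447 genes in the files, with 20 semaphorins, 9 plexins and 2 neuropilins. Cerebellar RNA was collected at postnatal day 21 (P21) from 5 DscamKO and 5 Control mice, with 1 library per mouse. The labels give BALB/c as the strain of every mouse, and by the study's methods the del17 line had been crossed with BALB/cCrSlc mice. DscamKO mice are homozygous for del17, a spontaneous loss-of-function deletion in exon 17 of Dscam that is present in all cells of the body from conception, so the comparison does not isolate a cell type or a stage. Both sexes were used and the labels do not give the sex of a mouse. Dscam encodes a cell adhesion molecule of developing neurons, and the study asked what its loss does to the synapses that climbing fibres form on Purkinje cells. Semaphorins enter that question because Sema3a and Sema7a, made by Purkinje cells, are known in mice to act on climbing fibres during synapse strengthening and elimination.

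Semaphorins are secreted or membrane-bound cues that steer axons, migrating neurons and synapse formation. Plexins are their transmembrane receptors, which act on the cytoskeleton through small GTPases, and neuropilins are co-receptors that let most secreted class 3 semaphorins act through plexin A proteins. In the cerebellum the system is known for its part in granule cell migration, in climbing fibre synapses and in the wiring of Purkinje cells.

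Plxnb1 was the only member whose values did not overlap between genotypes. Its values were lower in DscamKO, and 0.798% of all genes tested also lay lower without overlap. Sema7a was the most abundant member. Plxna3 was the only member with an unadjusted p under 0.05 from limma in all 19 alternatives of the processing. None of them passed the adjusted threshold. The promoter sequences of these 3 members are shown. Each runs 5′ to 3′ on the plus strand up to the base before the annotated gene start, from RefSeq promoter windows on GRCm38.p6, and capitals mark GC boxes, a GGGCGG or its reverse complement CCGCCC. The windows are chr9:109095186-109095388 for Plxnb1, chrX:74328816-74329065 for Plxna3 and chr9:57939862-57940111 for Sema7a.
Plxnb1: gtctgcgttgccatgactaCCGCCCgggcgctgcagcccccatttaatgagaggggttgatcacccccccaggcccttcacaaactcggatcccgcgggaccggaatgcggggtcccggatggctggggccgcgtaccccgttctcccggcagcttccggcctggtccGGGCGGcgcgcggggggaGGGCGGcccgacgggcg
Plxna3: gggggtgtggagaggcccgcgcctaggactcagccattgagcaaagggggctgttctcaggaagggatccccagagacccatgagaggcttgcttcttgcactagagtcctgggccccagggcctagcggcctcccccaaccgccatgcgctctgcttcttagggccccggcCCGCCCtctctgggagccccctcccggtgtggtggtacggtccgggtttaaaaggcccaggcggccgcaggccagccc
Sema7a: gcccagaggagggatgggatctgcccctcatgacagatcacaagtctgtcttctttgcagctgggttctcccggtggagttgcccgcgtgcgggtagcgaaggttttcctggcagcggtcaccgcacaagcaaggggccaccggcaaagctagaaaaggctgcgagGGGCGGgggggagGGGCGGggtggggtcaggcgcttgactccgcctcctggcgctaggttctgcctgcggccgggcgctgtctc
The Plxnb1 stretch of 203 bases holds 24 CG dinucleotides and 3 GC boxes. The Plxna3 stretch of 250 bases holds 12 CG dinucleotides and 1 GC box, and the Sema7a stretch of 250 bases holds 17 CG dinucleotides and 2 GC boxes. A TATA box, searched as TATAAA or its reverse complement TTTATA, was in none of these stretches. RefSeq gave 37 promoter windows for 26 of the 31 members. Over the 250 bases before each start, a GC box was found in 27 of these 37 windows (73.0%), against 32.7% of all 32851 promoter windows, and a TATA box in 0 of 37 against 12.4%. These are matches of letters and describe the windows only.

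All values are TPM, a library-scaled level per transcript length that can be compared between genes within a library. Read numbers cannot be recovered from TPM, the depth of each library is therefore unknown, and counting errors are not given. The files' TPM summed to 775148 to 805869 in DscamKO and 684771 to 838532 in Control libraries. Mitochondrially encoded mRNAs summed to 34717 to 44973 TPM (median 39488) in DscamKO and 15206 to 44670 TPM (median 32199) in Control libraries, with the 2 lowest values in Control 5 and Control 3 (15206 and 23124 TPM). Control 5 also held the lowest value of the 10 libraries for 38.8% of all genes tested. Xist, whose level is used below in place of the sex, was at 88.3 TPM in Control 1 and 65.6 TPM in DscamKO 5. In every other library Xist was at most 0.0865 TPM. Defining markers of Purkinje cells and granule cells were all above 0.5 TPM on average, while Atoh1, Mki67 and Top2a of granule cell precursors were below it. The summed level of 8 oligodendrocyte markers was 7364 to 8648 TPM (median 8429) in DscamKO and 5789 to 8374 TPM (median 7645) in Control libraries. The values of 6 of the 63 cell type markers did not overlap between genotypes. Of these, 3 were higher in DscamKO, against 0.419% of all genes tested, and 3 were lower, against 0.798%. The oligodendrocyte genes Mobp (911 to 1026 TPM in DscamKO, 545 to 847 TPM in Control) and Mog (139.8 to 175 TPM in DscamKO, 56.8 to 139.7 TPM in Control) were higher in DscamKO, as was Dbh, a marker of brainstem neurons (0.685 to 1.45 TPM in DscamKO, 0 to 0.458 TPM in Control). The granule cell gene Neurod1 (295 to 320 TPM in DscamKO, 326 to 390 TPM in Control) and the mural cell genes Vtn (51.3 to 65.50 TPM in DscamKO, 65.57 to 82.6 TPM in Control) and Kcnj8 (1.78 to 3.22 TPM in DscamKO, 3.56 to 4.28 TPM in Control) were lower. As whole lists, 6 granule cell markers summed to 1991 to 2142 TPM in DscamKO and 1915 to 2582 TPM in Control, and 4 mural cell markers to 89.7 to 109.8 TPM in DscamKO and 96.0 to 132 TPM in Control, and both sums overlapped. Whether these differences have a part in the members' values was not tested. In whole cerebellum, fewer cells of a type and less RNA per cell cannot be told apart.

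All 31 members were expressed. A filter of 0.5 TPM in at least 5 of the 10 libraries was passed by all 31, and 30 reached 0.5 TPM in every library. The exception was Nrp1, at 0.485 TPM in DscamKO 1. The members' mean levels over the 10 libraries spanned 1.28 TPM (Nrp1) to 111 TPM (Sema7a), and 16 members averaged at least 10 TPM. By summed level, class 4 semaphorins made up 26.1% of all TPM of the members, the plexin B genes 19.4%, Sema7a alone 16.7%, the plexin A genes 14.9% and class 6 semaphorins 14.3%. The 7 secreted class 3 semaphorins together made up 3.16%, and the 2 neuropilins 0.601%.

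In the order of mean levels, Sema7a (111 TPM) was followed by Sema4g (84.6 TPM), Plxnb2 (84.3 TPM), Sema6b (41.2 TPM), Plxna1 (37.6 TPM) and Plxna3 (34.7 TPM). The other members at 10 TPM or more were, in falling order, Sema4c, Plxnb1, Sema6c, Sema4f, Sema6d, Sema4d, Plxnb3, Plxna2, Plxnd1 and Plxna4. Below them came Sema4a, Sema6a, Sema5b, Sema5a, Sema3f, Sema4b, Sema3b, Plxnc1, Sema3g, Nrp2, Sema3e, Sema3c, Sema3a, Sema3d and Nrp1. Of the 30 pairs of neighbours in this order, only Sema7a over Sema4g and Plxnb2 over Sema6b stood in the same order in all 10 libraries. The other 28 neighbouring pairs changed places in at least 1 library, so their order is not separated from the spread between mice.

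**Figure D1:**
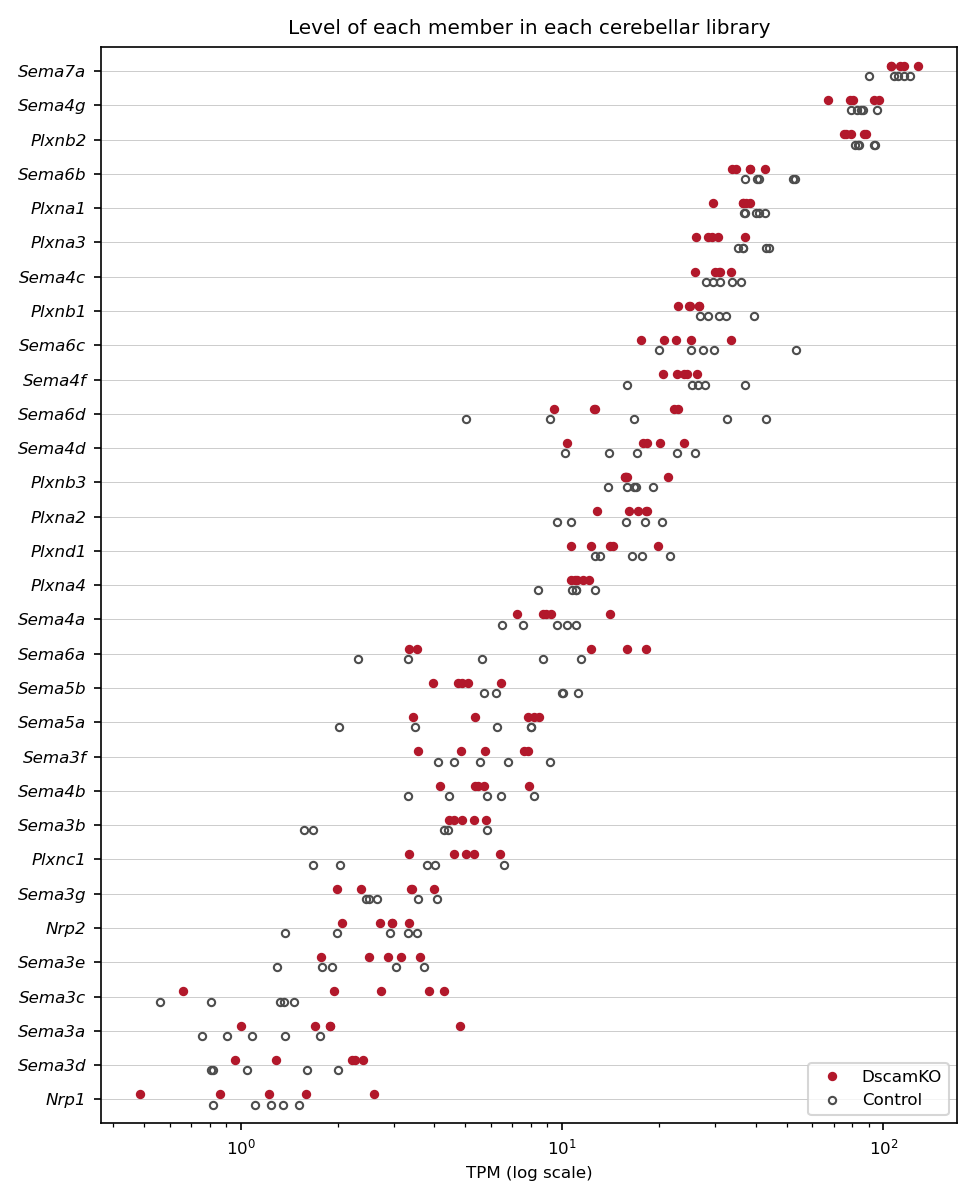
TPM of each of the 31 members on a log axis, ordered by mean level, with 1 filled point per DscamKO library above 1 open point per Control library. Sema7a was highest at 89.9 to 128 TPM. The points of Plxnb1 are the only ones that do not overlap between genotypes, on the lower side, against 0.798% of all genes tested.

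Dscam itself was measured at 5.11, 5.42, 4.53, 3.73 and 3.05 TPM in DscamKO 1 to 5, against 8.04, 8.43, 6.79, 9.05 and 6.29 TPM in Control 1 to 5. Every DscamKO value was below every Control value. Dscam spans 96590840 to 97170752 of chromosome 16 (minus strand). The log2 fold change, always DscamKO minus Control, was -0.82 (95% interval -1.33 to -0.323). Its unadjusted p was 0.0039 and its adjusted p 0.779 from limma, so the mutated gene itself did not pass the adjusted threshold.

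No member passed the test between genotypes. The 17168 genes that passed the filter were compared on log2(TPM + 0.1) in limma, with p-values adjusted over all of them and a threshold of 0.05. At that threshold 0 of 31 members were called, as were 0% of all genes, and the smallest adjusted p among members was 0.779. An exact permutation test on every gene, adjusted the same way, could not call any member. Plxnb1 reached the smallest p that this test can give with 5 against 5 libraries (0.0079), and its adjusted p was 0.652. At an unadjusted p under 0.05, 3 members were lower in DscamKO (Plxna3, Sema5b and Plxnb1), against a background of 3.26% of all genes (559 genes), and 0 members were higher, against 2.29% (394 genes). The DscamKO and Control values did not overlap for 1 member on the lower side, Plxnb1, against 0.798% of all genes, and for 0 members on the higher side, against 0.419%. A value above 0 was found for 16 of the 31 members, against 56% of all genes, and the members' median was 0.03, against 0.05 over all genes.

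**Figure D2:**
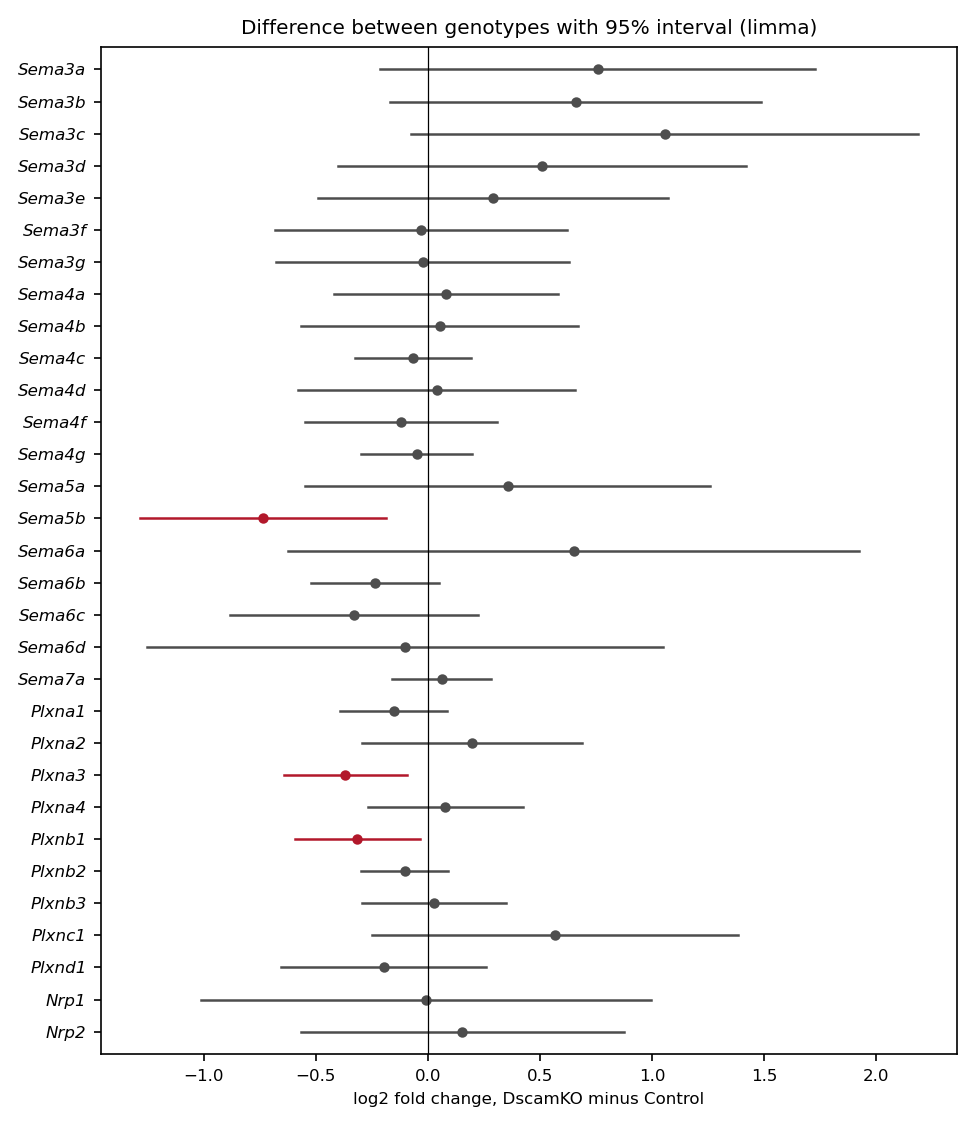
Log2 fold change of each member (DscamKO minus Control) as a point with its 95% interval from limma, grouped by class, with members at an unadjusted p under 0.05 in red. Only the intervals of Sema5b, Plxna3 and Plxnb1 leave out 0, all on the lower side, and none of the members passed the adjusted threshold.

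Class 3 semaphorins, the secreted ligands, had low levels and wide intervals. On the log2 scale, the fold change was above 0 for 5 of the 7 (Sema3c, Sema3a, Sema3b, Sema3d and Sema3e), between 0.29 and 1.06, and close to 0 for Sema3f (-0.03) and Sema3g (-0.02). Of all genes tested that averaged under 10 TPM, 59.0% were above 0. The summed level of the class was 23.5 ± 3.68 TPM in DscamKO and 18.5 ± 5.04 TPM in Control (SD, n = 5 each). Control 5 (11.9 TPM) and Control 3 (15.2 TPM) had the lowest sums. The other Control sums (19.6 to 24.5 TPM) lay within the DscamKO range (18.9 to 27.7 TPM).

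Sema3a, the founding repellent of the class, signals through Nrp1 and plexin A4. It was measured at 4.80, 1.90, 1.89, 1.70 and 1.0 TPM in DscamKO 1 to 5, against 1.37, 1.76, 0.908, 1.08 and 0.755 TPM in Control 1 to 5. The groups overlapped, and DscamKO 1 stood far above the rest. It had a log2 fold change of 0.76 (95% interval -0.212 to 1.73, unadjusted p = 0.114 from limma), and 0.49 without Control 3 and Control 5. Without DscamKO 1 it was 0.45, and without DscamKO 5, the lowest of its genotype, it was 0.99 (unadjusted p = 0.0478 from limma).

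Sema3c, which acts through neuropilins and plexins in axon guidance and in vessels, had the largest log2 fold change of the members, 1.06 (95% interval -0.075 to 2.19, unadjusted p = 0.0645 from limma). Its levels were 1.94, 3.86, 2.72, 4.29 and 0.658 TPM in DscamKO 1 to 5, against 1.46, 1.33, 0.808, 1.36 and 0.561 TPM in Control 1 to 5. DscamKO 1 to 4 lay above all Control values, and DscamKO 5 lay below 4 of the 5 Control values. Without Control 3 and Control 5 the log2 fold change was 0.68, and without DscamKO 5 it was 1.47.

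Sema3b averaged 5.01 ± 0.551 TPM in DscamKO and 3.55 ± 1.87 TPM in Control (SD, n = 5 each), a log2 fold change of 0.66. The low Control values were those of Control 3 and Control 5 (1.57 and 1.68 TPM), and without these libraries the log2 fold change was 0.06. Sema3d averaged 1.83 ± 0.656 TPM in DscamKO and 1.26 ± 0.529 TPM in Control. Sema3e, which can bind plexin D1 without a neuropilin, averaged 2.78 ± 0.691 TPM in DscamKO and 2.35 ± 0.99 TPM in Control. Sema3f and Sema3g, ligands that prefer Nrp2, averaged 5.92 and 3.03 TPM in DscamKO against 6.05 and 3.05 TPM in Control.

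Class 4 semaphorins, which are membrane-bound ligands mainly of plexin B receptors, were the most abundant class. Their sum was 171 ± 14.4 TPM in DscamKO and 177 ± 5.16 TPM in Control (SD, n = 5 each), and the 6 log2 fold changes ran from -0.12 (Sema4f) to 0.08 (Sema4a). Sema4g, a ligand of plexin B2 in the developing mouse cerebellum, was measured at 97.2, 93.6, 78.7, 67.1 and 80.4 TPM in DscamKO 1 to 5, against 82.5, 85.1, 79.3, 86.2 and 95.5 TPM in Control 1 to 5. The DscamKO values enclosed those of Control, and the 95% interval of the log2 fold change was -0.297 to 0.199.

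Sema4c, another plexin B2 ligand, averaged 30.2 ± 2.76 TPM in DscamKO and 31.7 ± 3.25 TPM in Control. Sema4d, the main ligand of plexin B1, averaged 18.1 ± 4.96 TPM in DscamKO and 18.0 ± 6.38 TPM in Control. Sema4f averaged 23.6 ± 2.12 TPM in DscamKO and 26.5 ± 7.53 TPM in Control, where it ran from 15.9 to 37.0 TPM. The 2 least abundant members of the class were Sema4a (9.62 ± 2.61 TPM in DscamKO, 9.04 ± 1.93 TPM in Control) and Sema4b (5.71 ± 1.34 TPM in DscamKO, 5.64 ± 1.87 TPM in Control).

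Class 5 semaphorins carry thrombospondin repeats, and both restrict neurites in the mouse retina through plexin A1 and plexin A3. Sema5b was measured at 5.07, 4.88, 6.45, 4.73 and 3.97 TPM in DscamKO 1 to 5, against 5.70, 6.23, 10.1, 11.2 and 10.005 TPM in Control 1 to 5. DscamKO 3 lay above Control 1 and Control 2, while the other DscamKO values were below every Control value. Between genotypes, the log2 fold change was -0.74 (95% interval -1.28 to -0.185), with an unadjusted p of 0.0132 and an adjusted p of 0.779 from limma and p = 0.0238 in the exact two-sided permutation test. Without Control 3 and Control 5, which are 2 of its 3 high Control values, it was -0.56 (unadjusted p = 0.0732 from limma). Sema5b lies on the plus strand of chromosome 16, from 35541145 to 35664732, the chromosome that also carries Dscam, 60.93 Mb further along.

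Sema5a averaged 6.66 ± 2.2 TPM in DscamKO and 5.55 ± 2.70 TPM in Control (SD, n = 5 each), with a log2 fold change of 0.36 (95% interval -0.55 to 1.26). It ran from 3.43 to 8.50 TPM in DscamKO and from 2.02 to 8.0 TPM in Control. DscamKO 4 and Control 5 held the lowest values of their genotypes, and the log2 fold change was 0.57 without DscamKO 4 and 0.0455 without Control 5.

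Class 6 semaphorins are membrane-bound ligands of plexin A receptors that need no neuropilin. Sema6b, the most abundant of them, was measured at 38.5, 38.5, 34.8, 33.8 and 42.7 TPM in DscamKO 1 to 5, against 40.3, 37.2, 40.8, 52.9 and 52.3 TPM in Control 1 to 5. Control 4 and Control 5 stood above the other 8 libraries, which overlapped. The log2 fold change was -0.24 (95% interval -0.523 to 0.049).

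Sema6a, which with plexin A2 directs granule cell migration in mice, varied 7.91-fold over the 10 libraries. It was lowest in DscamKO 5 (3.33 TPM), at a median of 12.3 TPM and highest in DscamKO 2 (18.3 TPM), against a lowest value of 2.31 TPM in Control 5, a median of 5.62 TPM and a highest of 11.4 TPM in Control 2. Its log2 fold change was 0.65 (95% interval -0.623 to 1.93), and 0.28 without Control 3 and Control 5. Sema6d, a ligand of plexin A1, varied more than any other member, 8.53-fold, with 9.41 to 22.9 TPM in DscamKO and 5.04 to 42.9 TPM in Control libraries. For Sema6d the log2 fold change was -0.10 (95% interval -1.25 to 1.05, unadjusted p = 0.85 from limma), 0.25 without Control 1, 0.15 without Control 4, -0.52 without Control 5, 0.0656 without DscamKO 5, and -0.93 without Control 3 and Control 5 (unadjusted p = 0.0291). Sema6c averaged 23.9 ± 6.01 TPM in DscamKO and 31.1 ± 13.0 TPM in Control, where Control 5 was highest at 53.4 TPM.

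Sema7a, the lipid-anchored semaphorin that binds plexin C1 and integrin beta 1, was the most abundant member. It was measured at 128, 105, 113, 105 and 116 TPM in DscamKO 1 to 5, against 111, 89.9, 116, 121 and 108 TPM in Control 1 to 5. The values overlapped throughout, and the log2 fold change was 0.06 (95% interval -0.16 to 0.284, unadjusted p = 0.552 from limma). The gene lies on the plus strand of chromosome 9, from 57940112 to 57962865.

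**Figure D3:**
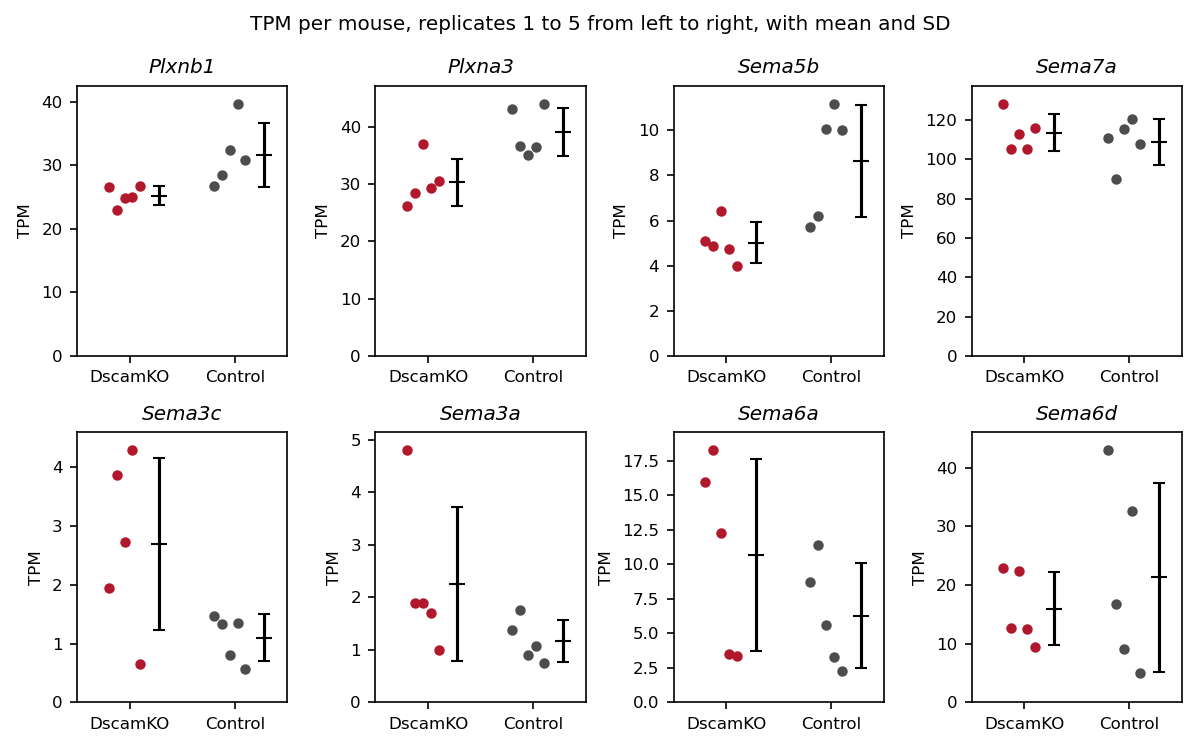
TPM of 8 semaphorins and plexins, with 1 point per mouse (replicates 1 to 5 from left to right, DscamKO left of Control) and a bar for the mean and SD of each genotype. Plxnb1 lay at 23.0 to 26.7 TPM in DscamKO and 26.8 to 39.7 TPM in Control, whereas the values of Sema7a, Sema3a, Sema6a and Sema6d overlapped.

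Among the receptors, the summed level of the 9 plexins was 236 ± 6.35 TPM (230 to 247) in DscamKO and 260 ± 14.9 TPM (242 to 279) in Control (SD, n = 5 each). DscamKO 3 was above Control 3, and the other 4 DscamKO sums were below every Control sum. The plexin A genes summed to 93.9 ± 6.53 TPM in DscamKO and 104 ± 6.72 TPM in Control, and the plexin B genes to 123 ± 6.62 TPM in DscamKO and 135 ± 11.4 TPM in Control. The sums were not tested.

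Plxna3, a receptor for class 3 semaphorins with Nrp2 and for class 5 semaphorins, was measured at 26.1, 28.5, 37.0, 29.4 and 30.6 TPM in DscamKO 1 to 5, against 43.1, 36.6, 35.1, 36.4 and 44.0 TPM in Control 1 to 5. Only DscamKO 3 reached into the Control range. On the log2 scale, the fold change was -0.37 (95% interval -0.643 to -0.0934), with an unadjusted p of 0.013 and an adjusted p of 0.779 from limma and p = 0.0318 in the exact two-sided permutation test. It was -0.36 without Control 3 and Control 5. Plxna3 lies on the plus strand of chromosome X, from 74329066 to 74344689, and with the level of Xist as a covariate, in place of the sex the labels do not give, the value was -0.37.

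Plxna1, a receptor for class 6 and class 3 semaphorins, was measured at 38.5, 37.3, 36.6, 29.6 and 36.5 TPM in DscamKO 1 to 5, against 36.9, 41.0, 37.0, 40.1 and 42.9 TPM in Control 1 to 5. DscamKO 4 lay below the rest, while the other 4 DscamKO values overlapped with Control 1 and Control 3. It had a log2 fold change of -0.15 (95% interval -0.391 to 0.086), which was -0.0863 without DscamKO 4. Plxna2, the receptor of Sema6a in granule cells, averaged 16.6 ± 2.27 TPM in DscamKO and 14.9 ± 4.69 TPM in Control.

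Plxna4, a receptor for Sema3a and class 6 semaphorins, was measured at 11.1, 12.1, 11.6, 11.0 and 10.6 TPM in DscamKO 1 to 5, against 10.7, 11.0, 11.1, 12.6 and 8.41 TPM in Control 1 to 5. The 10 values lay within a narrow band apart from Control 5. Between genotypes, the log2 fold change was 0.08 (95% interval -0.265 to 0.423).

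Plxnb1, the receptor of Sema4d, was measured at 26.6, 23.0, 24.8, 25.1 and 26.7 TPM in DscamKO 1 to 5, against 26.8, 28.5, 32.4, 39.7 and 30.8 TPM in Control 1 to 5. Every DscamKO value was below every Control value, but the highest DscamKO value and the lowest Control value differed by less than 1 TPM. The log2 fold change was -0.31 (95% interval -0.594 to -0.0343), with an unadjusted p of 0.0309 and an adjusted p of 0.779 from limma. The exact two-sided permutation test gave p = 0.0079, the smallest that 5 against 5 libraries can give, and an adjusted p of 0.652. Without Control 4 it was -0.23 (unadjusted p = 0.0847 from limma), and without Control 3 and Control 5 it was -0.31 (unadjusted p = 0.0626). Plxnb1 lies on the plus strand of chromosome 9, from 109095389 to 109119917, and its exons overlap those of Gm7628 on the other strand, with which reads may be shared.

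Plxnb2, a plexin that regulates proliferation and migration of granule cell precursors in mice, was the most abundant receptor and the steadiest member, at 1.24-fold over all libraries. It was measured at 76.5, 75.4, 79.5, 88.0 and 86.9 TPM in DscamKO 1 to 5, against 81.8, 84.1, 83.2, 93.6 and 93.8 TPM in Control 1 to 5. The groups overlapped, and the log2 fold change was -0.10 (95% interval -0.298 to 0.0919). Plxnb3, a receptor for Sema5a, averaged 16.9 ± 2.49 TPM in DscamKO and 16.5 ± 1.89 TPM in Control.

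Plxnc1, the receptor of Sema7a, was measured at 6.38, 5.03, 5.33, 4.59 and 3.33 TPM in DscamKO 1 to 5, against 6.58, 4.02, 1.68, 3.79 and 2.03 TPM in Control 1 to 5. The groups overlapped, with the lowest values in Control 3 and Control 5. Its log2 fold change was 0.57 (95% interval -0.25 to 1.39), and 0.05 without these 2 libraries. Plxnd1, the receptor of Sema3e, averaged 14.3 ± 3.5 TPM in DscamKO and 16.3 ± 3.72 TPM in Control.

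Neuropilin transcripts were scarce, with summed levels of 4.16 ± 0.896 TPM in DscamKO and 3.83 ± 1.11 TPM in Control (SD, n = 5 each). Nrp1, the Sema3a co-receptor, was measured at 0.485, 1.22, 1.59, 0.861 and 2.60 TPM in DscamKO 1 to 5, against 1.10, 1.24, 1.36, 1.52 and 0.82 TPM in Control 1 to 5. The DscamKO values enclosed those of Control, and the log2 fold change was -0.01 (95% interval -1.01 to 0.997). Nrp2 averaged 2.81 ± 0.476 TPM in DscamKO and 2.62 ± 0.916 TPM in Control.

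Directions were also counted by level. Among the 16 members averaging 10 TPM or more, 5 showed a log2 fold change above 0 (median -0.10), against 53.2% of all genes at that level (median 0.02). Of the 15 members below 10 TPM, 11 had a log2 fold change above 0 (median 0.29), against 59.0% of all genes (median 0.12). This division was chosen after the values were seen and was not tested. Control 5 held the lowest of the 10 values for 11 members (Sema3a, Sema3c, Sema3d, Sema3e, Sema4b, Sema4f, Sema5a, Sema6a, Sema6d, Plxna4 and Nrp2) and the highest for 6 (Plxna1, Plxna3, Plxnb2, Plxnd1, Sema4d and Sema6c). Over all genes tested, Control 5 was lowest for 38.8% and highest for 11.8%. Without Control 3 and Control 5, the 2 libraries with the least mitochondrial mRNA, 11 of the 31 members had a log2 fold change above 0, and the median was -0.07 for the members and -0.09 for all genes. Among them, Sema3e (-0.04), Sema4b (-0.27), Plxna2 (-0.13), Plxna4 (-0.02) and Nrp2 (-0.22) then had a log2 fold change below 0, while that of Sema3c (0.68) stayed the largest above 0.

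**Figure D4:**
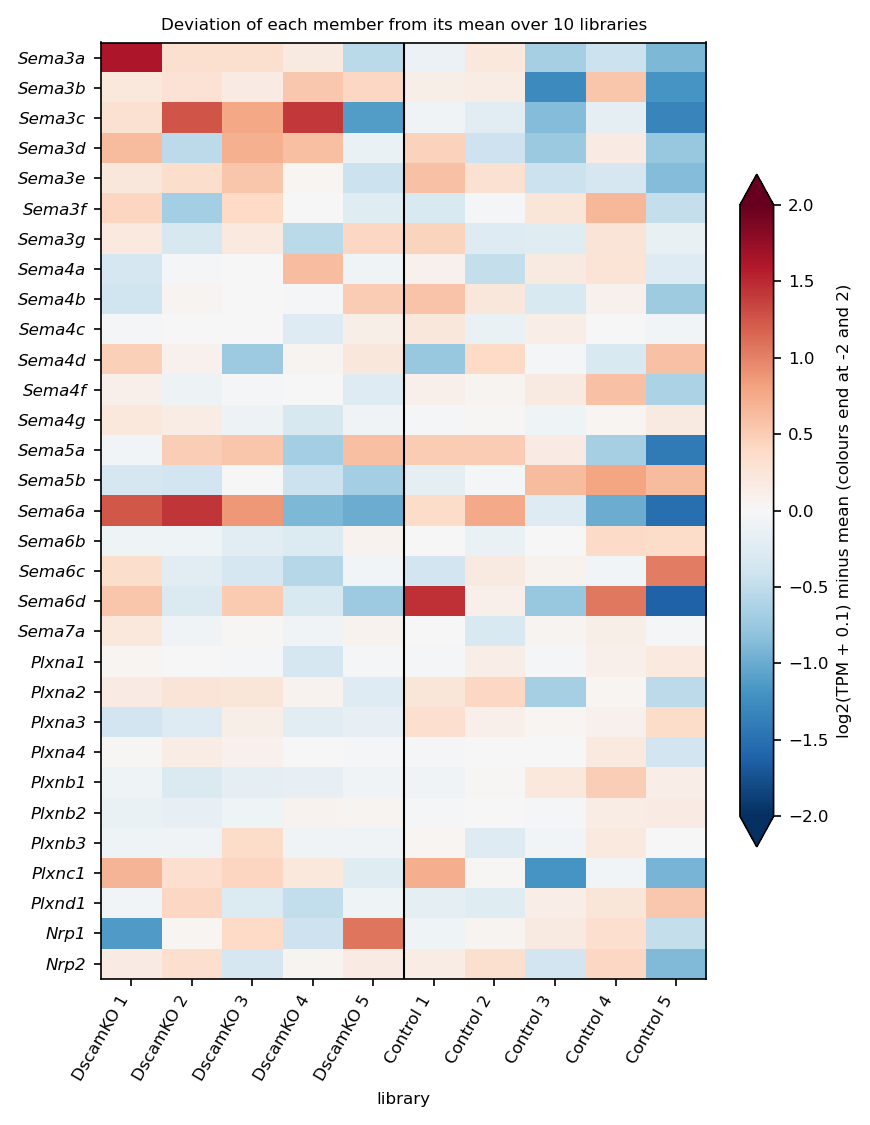
Deviation of each member, as log2(TPM + 0.1), from its mean over the 10 libraries, with members in rows by class, DscamKO libraries left of the line and Control libraries right of it. Red is above and blue below the mean. Control 5 is the lowest library for 11 of the 31 members and the highest for 6, against 38.8% and 11.8% of all genes tested.

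Of 52 other genes of the pathway (co-receptors, other neuropilin ligands, and cytosolic effectors), 49 passed the filter. Met, Mst1r and Cd72 did not, with highest values of 0.247, 0.631 and 1.17 TPM. On the log2 scale, the fold change was above 0 for 29 and below 0 for 20, where 56% of all genes tested were above 0. The median was 0.11, against 0.05 over all genes. Without Control 3 and Control 5 the pathway median was -0.06, and that of all genes was also below 0. None of the 49 passed the adjusted threshold in limma. At an unadjusted p under 0.05, 1 of the 49 was higher in DscamKO, against 2.29% of all genes, and 1 of the 49 was lower, against 3.26%. Neither share is above that of all genes, and both genes are given as values only.

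The lower one was Sh3bp1, a GTPase-activating protein for Rac that binds plexins. It was measured at 137, 139, 136, 125 and 136 TPM in DscamKO 1 to 5, against 162, 159, 138, 163 and 171 TPM in Control 1 to 5, where Control 3 lay within the DscamKO range. It had a log2 fold change of -0.23 (95% interval -0.412 to -0.0539, adjusted p = 0.779 from limma).

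The higher one was Dpysl2, which encodes CRMP2, a cytosolic mediator of Sema3a signals in growth cones. It was measured at 42.3, 44.8, 39.9, 42.7 and 42.6 TPM in DscamKO 1 to 5, against 32.2, 41.3, 39.0, 25.3 and 34.3 TPM in Control 1 to 5, with an overlap at DscamKO 3 and Control 2. Between genotypes, the log2 fold change was 0.32 (95% interval 0.0229 to 0.618, adjusted p = 0.779 from limma). The most abundant pathway gene was Cfl1, which encodes the actin-severing protein cofilin, at 1268 ± 57.4 TPM in DscamKO and 1376 ± 194 TPM in Control (SD, n = 5 each), followed by Sh3bp1 and by Mical2, an actin-oxidizing enzyme, at 138 ± 16.2 TPM in DscamKO and 151 ± 19.9 TPM in Control.

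Several members are neighbours in the genome. On chromosome 5, Sema3d, Sema3a, Sema3e and Sema3c follow each other with gaps of 0.54, 0.42 and 3.32 Mb, and their log2 fold changes were 0.51, 0.76, 0.29 and 1.06. On chromosome 9, Sema3b and Sema3f are 72.3 kb apart and Plxnb1 follows after 1.38 Mb, with log2 fold changes of 0.66, -0.03 and -0.31. On chromosome X, Plxnb3 and Plxna3 are 0.56 Mb apart, with log2 fold changes of 0.03 and -0.37. Exons of other annotated genes overlap those of Nrp1 (Mir1903), Plxnc1 (Gm48718) and Sema4a (Mir7011) on the same strand and those of Plxna1 (Gm26811), Plxna4 (Plxna4os3) and Sema4c (D430040D24Rik) on the other strand, so that these members' values may hold reads of a second gene. Positions are from GENCODE M21 on GRCm38.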

How the data were processed

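Cerebellar RNA of 5 DscamKO and 5 Control mice was sequenced. The authors trimmed and aligned the reads to GRCm38 with HISAT2 and deposited TPM per Ensembl gene from StringTie, 1 table per library. The library kit is directional, and the strand setting and annotation release are not given in the sources used here. The read counts and DESeq2 results of the study were not analysed here. Symbols, positions and exon overlaps came from GENCODE M21.

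The 17168 genes that reached 0.5 TPM in 5 or more libraries were compared on log2(TPM + 0.1), a scale that understates the change of low genes, with limma 3.58.1 (R 4.3.3), a variance trend and no covariate. Adjustment over all of these genes followed Benjamini and Hochberg, and the threshold was 0.05. The exact two-sided permutation test used all 252 divisions into 5 and 5. The code was tested on simulated data. The limma p-values set the difference between genotypes against the spread between libraries of a genotype. With 1 library per mouse, differences between mice and between library preparations cannot be told apart in that spread.

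Values in every library are given for Dscam, the 6 most abundant members and members with an unadjusted limma p under 0.05 or without overlap. They are also given for Sema3a, Sema7a and the receptors Nrp1, Plxna4 and Plxnc1. Some further values were singled out after they were seen. Pathway genes are named by an unadjusted p under 0.05 or by the 3 highest levels. The members, lists and alternatives were chosen with earlier results of these data known. Alternatives were another added value, filter and scaling, a covariate, a replicate block and libraries left out. The summed level of the brainstem markers is not reported here.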

Additional observations from a re-analysis of the deposited data

Results flagged for a closer look

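In 4 of the 62 groups of 5 libraries (31 members in 2 genotypes) 1 library stood far from the other 4, where chance gives about 1 in 20, or 3.1 groups. All 4 were in DscamKO. Sema3a was at 4.80 TPM in DscamKO 1, and its next value was 1.90 TPM. Sema4a was at 14.1 TPM in DscamKO 4, and its next value was 9.22 TPM. Plxnb3 was at 21.3 TPM in DscamKO 3, and its next value was 15.9 TPM. Plxna1 was low in DscamKO 4, at 29.6 TPM, and its next value was 36.5 TPM.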

How the results depend on the processing

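Across 19 alternatives, 10 of which leave out 1 library, no member passed the adjusted threshold, 13 members kept the direction of their log2 fold change and 18 changed it at least once. The unadjusted p stayed under 0.05 in 19 of 19 for Plxna3 (-0.44 to -0.32), 17 for Sema5b (-0.87 to -0.52) and 11 for Plxnb1 (-0.37 to -0.23). It was also under 0.05 in 3 for Sema3c, in 2 for Sema6d, with mitochondrial mRNA as a covariate (-0.95, unadjusted p = 0.0245 from limma) and without Control 3 and Control 5 (-0.93, unadjusted p = 0.0291), and in 1 each for Sema3a, Sema3b, Sema6a, Sema6b and Plxnc1. Whether equal replicate numbers pair the mice is not known, since weak correlation cannot exclude it. Deviations of same-numbered libraries correlated at 0.008 to 0.098, and only numbers 2 and 5 correlated best with their own number. With the replicate number as a block, 4 members and 5 pathway genes had an unadjusted p under 0.05, against 3 and 2 without it. For the alternatives, the share of all genes under this limit was not counted. Counts of members and pathway genes there therefore describe the settings only. In limma, Sema6a (unadjusted p = 0.0266) and Sema3c (unadjusted p = 0.0392) came under this limit with the block and Plxnb1 (unadjusted p = 0.0552) left it. Directions turned as follows. With 1 TPM added, Nrp1 was 0.035. With median ratio scaling, Plxnb3 was -0.0079 and 4 pathway genes had an unadjusted p under 0.05. With quantile normalization, Sema4d was -0.0047, Sema4a -0.0072, Plxna4 -0.0129, Sema4b -0.0536 and Plxnb3 -0.0349. With Xist as a covariate, Nrp1 was 0.0078. With mitochondrial mRNA as a covariate, the pathway median was -0.0787, Sema5a -0.052, Sema4g 0.0056, Nrp2 -0.19, Plxna2 -0.12, Plxna4 -0.0221, Plxnd1 0.0454, Sema4b -0.26, Sema6c 0.0041 and Sema3e -0.13. Without Control 3 and Control 5, the pathway median was -0.0606, Nrp2 -0.22, Plxna2 -0.13, Plxna4 -0.0175, Sema4b -0.27 and Sema3e -0.0426. Leaving out 1 library in turn gave ranges of -0.15 to 0.23 for Sema4d, -0.13 to 0.11 for Sema3g, -0.52 to 0.25 for Sema6d, 0.0455 to 0.57 for Sema5a, 0.45 to 0.99 for Sema3a, -0.18 to -0.0863 for Plxna1, -0.28 to 0.27 for Nrp1, -0.0648 to 0.17 for Sema4a, -0.0594 to 0.0813 for Plxnb3, -0.0055 to 0.10 for Sema7a, -0.12 to 0.20 for Sema4b, -0.15 to 0.14 for Sema3f, -0.29 to 0.0114 for Sema4f, -0.0492 to 0.28 for Nrp2, -0.0061 to 0.14 for Plxna4 and -0.11 to 0.026 for Sema4g. Over the same settings 2 to 5 members had an unadjusted p under 0.05, 5 of them without DscamKO 5. The count was 1 to 7 for pathway genes, 7 of them without Control 2 and 1 without DscamKO 1 or DscamKO 5. Across all genes 0 to 1 passed the adjusted threshold, the 1 without DscamKO 4. The cause was not tested. TPM keeps no read number, so the precision of low members such as Nrp1 is unknown.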
